A study of Mus musculus with 22 samples.

Results

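Normal mammary glands of FVB mice at week 8 were compared with those at week 6, at single cytosines, by enhanced reduced representation bisulfite sequencing (ERRBS). FVB is an inbred mouse strain. The 6 samples were those labelled mammary gland, strain FVB and healthy at week 6 (3 samples) and at week 8 (3 samples), of 22 samples in the series. All 6 were females without the transgene, taken as age-matched controls for PyMT mice, which carry a polyoma middle T antigen gene driven by the mouse mammary tumor virus (MMTV) promoter in the mammary epithelium. The question was how far the normal gland changed by itself over the 2 weeks in which the tumor model passes from hyperplasia to adenoma, and how much of any change rests on 1 mouse, week 8 replicate 2.

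At these ages the mouse mammary gland is in and just past puberty. Under ovarian hormones, epithelial ducts with terminal end buds elongate through a pad of fat and branch, so the tissue holds luminal and basal epithelial cells, adipocytes, fibroblasts, vessels and leukocytes. Methylation of cytosine at CpG dinucleotides is a stable mark copied at cell division. It is low at most CpG-rich promoters and high over most of the rest of the genome, and its pattern differs between cell types. Each tissue was bulk gland, so a change inside cells and a change in the share of a cell type cannot be told apart. The labels do not tie the samples to litters, estrous stage or date of dissection.

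ERRBS cuts DNA at CCGG sites and converts unmethylated cytosine, so a value is the percent of reads that kept a cytosine at 1 position on 1 strand. The comparison used the 1179268 autosomal CpG positions with at least 10 reads in all 6 samples, where mean coverage was 68.4 reads (week 6 replicate 2) to 84.6 reads (week 8 replicate 3). Mean coverage in week 8 replicate 2 was 75.2 reads, inside that range, and 0.216% of cytosines in its mitochondrial DNA, which should be almost free of the mark, were read as methylated against 0.171% to 0.239% in the other 5. Its mean methylation of 26.2% was close to the 25.9% to 26.1% of the others. It stood apart by its pattern over positions. Across all positions, its percents correlated with those of the other 5 samples at r = 0.965 to 0.973, whereas pairs without it gave 0.978 to 0.985, a description across positions that share libraries.

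The stretches below are shown because they carry the 4 clearest forms of the result, and the tested CpGs are in capitals. Sequences are from the RefSeq reference GRCm38.p6, which is the mm10 build of the files, on the + strand. The stretch near Sh3bp5 (chr14:31458995-31459093) was lower at week 8 whether or not week 8 replicate 2 was used, and so was the one in Rapgef4 (chr2:72054204-72054278), while the intron of Bckdha (chr7:25645107-25645179) was higher. In the stretch near Lgr5 (chr10:115664457-115664618) week 8 replicate 2 lay opposite to the other week 8 mice. In the stretches nearest to Fzd10os (chr5:128518962-128519023) and within Nmt1 (chr11:103045212-103045262) it was the one sample that differed. A stretch nearest to Mir365-2 (chr11:79790660-79790743), a coding exon of Sik3 (chr9:46195200-46195273) and an intron of Kcnmb4 (chr10:116434027-116434095) were among those with the largest differences of pooled reads between the weeks.
near Sh3bp5: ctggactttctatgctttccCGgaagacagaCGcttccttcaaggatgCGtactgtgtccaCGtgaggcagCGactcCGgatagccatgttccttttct
Rapgef4 intron: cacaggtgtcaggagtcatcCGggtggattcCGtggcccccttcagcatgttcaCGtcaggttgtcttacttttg
Bckdha intron: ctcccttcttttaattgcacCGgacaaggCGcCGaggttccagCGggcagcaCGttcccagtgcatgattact
near Lgr5: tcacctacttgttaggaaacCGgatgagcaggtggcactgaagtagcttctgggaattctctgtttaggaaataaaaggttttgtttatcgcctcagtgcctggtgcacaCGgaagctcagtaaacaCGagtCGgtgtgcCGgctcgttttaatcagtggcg
near Fzd10os: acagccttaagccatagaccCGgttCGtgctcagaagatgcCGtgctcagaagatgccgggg
Nmt1 intron: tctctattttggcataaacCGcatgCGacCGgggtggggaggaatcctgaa
near Mir365-2: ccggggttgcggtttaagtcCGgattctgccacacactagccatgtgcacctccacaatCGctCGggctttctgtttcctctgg
Sik3 coding exon: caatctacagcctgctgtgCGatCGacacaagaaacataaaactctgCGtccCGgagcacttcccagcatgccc
Kcnmb4 intron: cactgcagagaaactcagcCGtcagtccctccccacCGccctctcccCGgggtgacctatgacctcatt

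The overall level of methylation did not separate the weeks. Mean autosomal methylation was 25.9%, 26.2% and 26.1% in the 3 week 8 mice and 26%, 25.9% and 26.1% in the 3 week 6 mice, which overlapped. The difference of 0.0610 points (26.1% ± 0.130 against 26% ± 0.137, SD, n = 3 each) gave p = 0.6 by a two-sided exact permutation test, of which 0.10 is the smallest p that 3 against 3 mice allow. Its direction turned over pooled reads (-1.15 points) and without week 6 replicate 2 (-0.00839 points). Over promoter positions, within 2 kb of a transcription start site (TSS), the means were 3.66% at week 8 and 3.67% at week 6, and over introns 62.7% and 62.5%. In all, 15 classes of position were compared, with exact permutation p of 0.4 to 0.9 and adjusted p of 0.857 to 0.9.

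Single positions passed a test on reads. A differentially methylated cytosine (DMC) was a position at which the pooled reads of the weeks differed by at least 10 percentage points with q under 0.01 by logistic regression. Week 8 was higher at 4811 DMCs (0.408% of positions) and lower at 4641 (0.394%), so the 9452 DMCs were 0.802% of positions. The median difference was 16.7 points at the higher DMCs and -16.9 points at the lower ones, and 563 and 611 of them reached 25 points. This test treats reads as independent and does not include the spread between mice of one age. The ratio of variance over the mice of a week to that of sampled reads was taken at each position, with ratios under 1 set to 1. It averaged 1.89, a mean raised by that floor, and was over 2 at 26.7% of positions.

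Most DMCs needed week 8 replicate 2. Among the higher DMCs, mean methylation was 68.6%, 78% and 68.7% in week 8 replicates 1, 2 and 3 against 53.8%, 51.8% and 57.1% in week 6 replicates 1, 2 and 3. At the lower DMCs the same samples stood at 57.9%, 46.1% and 58.7% against 72.2%, 73% and 70.9%. Replicate 2 of week 8 was thus the farthest from week 6 on average in both directions, and it was the most extreme of the 6 samples at 67.7% of the higher and 67.7% of the lower DMCs. The weeks did not overlap at 2941 higher and 2868 lower DMCs, or 61.1% and 61.8% of them, where 3.89% of all positions had weeks that did not overlap. The DMCs were chosen for a week difference in these same mice, week 8 replicate 2 among them. That choice raises the shares with no overlap and those at which that mouse was most extreme, so neither stands as separate support.

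Leaving out that mouse left 1415 higher and 1615 lower DMCs (0.257% of positions in all). Of the calls made with all 6 mice, 943 higher (19.6%) and 1033 lower (22.3%) were still called, which were 66.6% and 64% of the calls made without it. Without week 6 replicate 1, 4604 higher and 4231 lower DMCs were called, and 49.9% and 49.8% of the calls with all 6 were kept. Without week 6 replicate 2 there were 3834 and 3980, and 49.4% and 53.2% were kept. Omitting week 8 replicate 1, week 8 replicate 3 or week 6 replicate 3 raised the counts to 8708 and 7671, 8272 and 8288, and 7761 and 5630, respectively, and kept 62.5% to 79.4%. The counts were lowest when week 8 replicate 2 was the mouse left out.

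**Figure D1:**
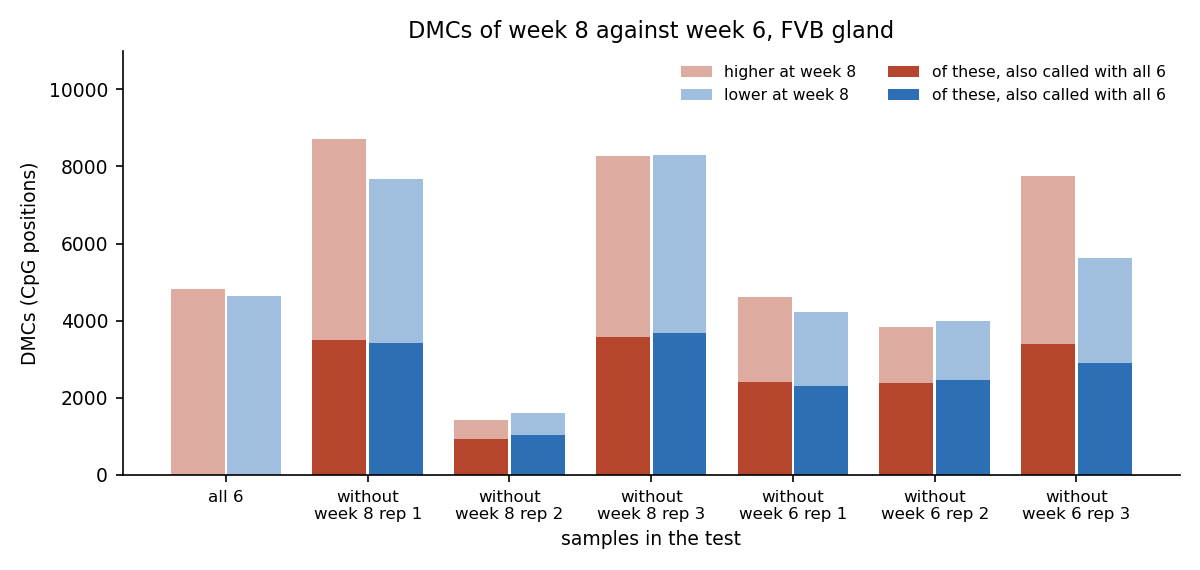
DMCs of week 8 against week 6 (y axis, number of CpG positions) with all 6 mice and with each mouse left out in turn (x axis), red for higher and blue for lower at week 8, with the dark part of a bar for those also called with all 6. Counts fell from 4811 and 4641 to 1415 and 1615 without week 8 replicate 2, of which 943 and 1033 were also called with all 6, and rose to 8708 and 7671 without week 8 replicate 1.

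Each week 8 mouse was then examined at DMCs called without it. At the 1415 higher DMCs called without week 8 replicate 2, week 6 averaged 55.4%, the other week 8 mice 74% and week 8 replicate 2 itself 65.6%, and it was nearer to week 8 than to week 6 at 56.5% of them. At the 1615 lower ones the means were 70.6%, 51.9% and 62.4%, and it was nearer to week 8 at 45.9%. This mouse lay about midway between the groups at positions chosen without it. At the higher DMCs called without week 8 replicate 1, that mouse averaged 57.8% against 52.7% at week 6 and 72.2% in the other week 8 mice, and was nearer to week 8 at 32.2%. At the lower ones the means were 67.4%, 72.7% and 52.3%, with 29% nearer to week 8. For week 8 replicate 3 the corresponding shares nearer to week 8 were 37.1% of the higher and 28.4% of the lower DMCs. The normal glands of weeks 10 and 12, 3 mice each, took no part in the calls, and at the higher DMCs called without week 8 replicate 2 they averaged 65.9% and 65.9%. At the lower DMCs they averaged 62.7% and 62.7%. Positions chosen for a difference between weeks 6 and 8 place other samples between the chosen levels, so these means say nothing about the direction with age.

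Tests that carry the spread between mice made few calls or none. With each position's variance scaled by its own overdispersion and a chi-square test, 241 higher and 242 lower DMCs were called (0.041% of positions), and without week 8 replicate 2, 143 and 217, of which 165 were called both times. With the same scaling, which was never under 1, and an F test 0 were called, with 17762 positions (1.51%) under an unadjusted p of 0.05. Limma on log2 ratios of methylated to unmethylated reads also called 0, with 44412 positions (3.77%) under 0.05 and a smallest adjusted p of 0.946.

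How far week 8 replicate 2 stood apart was measured as the positions at which 1 sample lay at least 20 points above or below all 5 others. It was above at 6580 and below at 9755 positions, 1.39% of those tested, while week 6 replicate 2 reached 0.488% and the other 4 mice 0.120% to 0.173%. At 395 positions it was at least 40 points above and at 1077 at least 40 points below. Set among all 12 control mice, weeks 10 and 12 included, it was still 20 points outside at 2650 and 5466 positions (0.707% of 1148317), with week 6 replicate 2 next at 0.209% and the other 10 mice at 0.0181% to 0.0719%. These positions were joined in place: of 86268 stretches of at least 3 neighboring positions, its mean was 20 points above the others in 165 and 20 points below in 212, and for the other 5 mice these counts were 4 to 31 and 11 to 67.

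**Figure D2:**
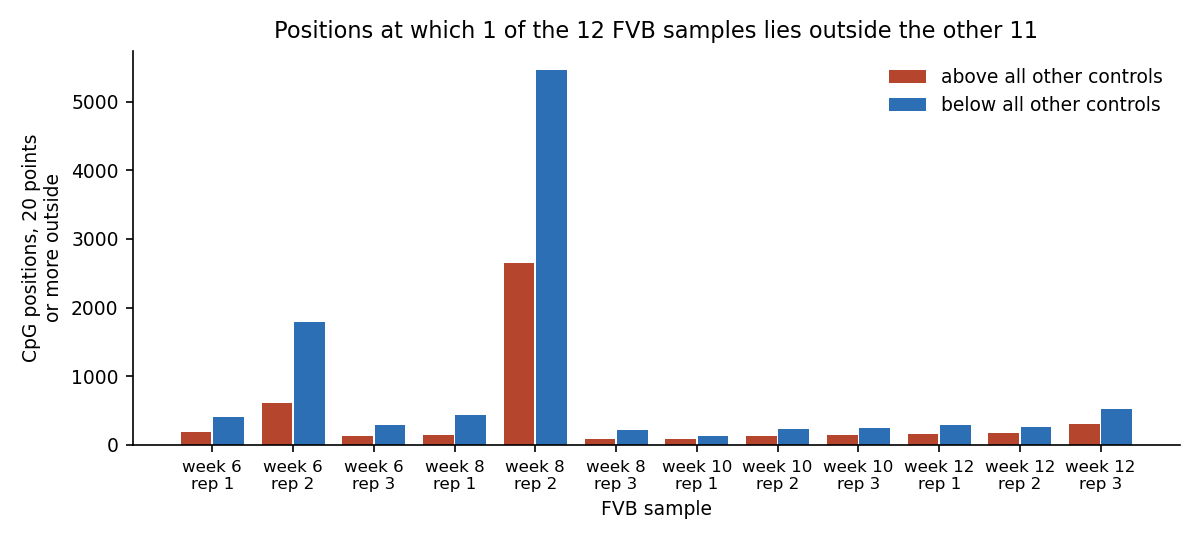
Number of CpG positions (y axis) at which each of the 12 control mice (x axis) lay at least 20 points above (red) or below (blue) all other controls. Week 8 replicate 2 reached 2650 and 5466 positions, and week 6 replicate 2 was next with 609 and 1786.

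The positions at which week 8 replicate 2 was high differed from those at which it was low. Where it was above, 75.6% had a week 6 mean of 20% to 80% and 22.9% lay in promoters. Where it was below, these shares were 49.8% and 8.99%, and 50.2% had a week 6 mean over 80%. Over all positions tested they were 14.5% and 60.6%, with 18.9% over 80%, so promoters were underrepresented on both sides. The level of week 8 replicate 2 and that of the other mice set part of the shares above and below by construction, since a position near full methylation can be exceeded by no sample. Soft-masked repeats held 4.91% of the positions above and 12.2% of those below, and 7.34% of all positions.

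Samples that took no part in the choice gave a further description of these positions. Over the 5895 positions above that were also covered in the later controls and in PyMT glands of weeks 6 and 8, weeks 10 and 12 averaged 43.3% and 43.1%, and week 6 averaged 37.7%. PyMT glands averaged 31.2% there, a difference of -11.99 points from the later controls, and lay at least 10 points under them at 50.1% of the positions against 9.27% of all positions. These 2 shares are not like for like. Of all tested positions, 66.6% had a week 6 mean under 20%, which leaves less room for a 10-point fall. At the 8596 positions below, the later controls averaged 73.5% and PyMT glands 72.2%, a difference of -1.29 points. A difference of this kind was not particular to week 8 replicate 2. PyMT glands minus later controls gave -10.4 points where week 8 replicate 3 was above the other 5 and -15.7 points where week 6 replicate 3 was, with -0.298 and -0.0807 points where these mice were below. The other 3 mice gave another form, positive where they were above and more strongly negative where they were below. The difference was 6.73, 3.97 and 2.81 points where week 8 replicate 1, week 6 replicate 1 and week 6 replicate 2 were above, and -15.3, -10.9 and -11.3 points where these were below.

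**Figure D3:**
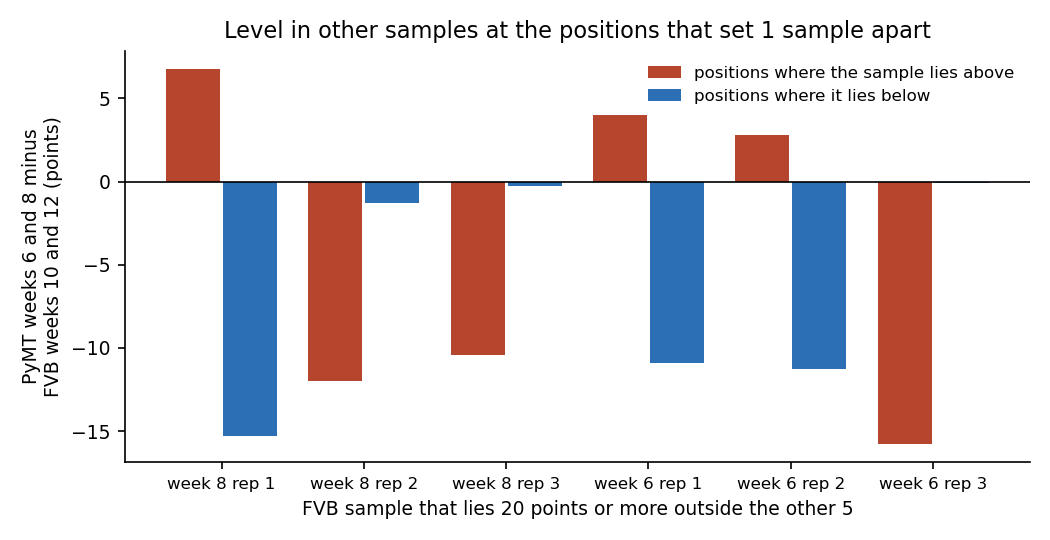
Mean methylation of PyMT glands of weeks 6 and 8 minus that of controls of weeks 10 and 12 (y axis, points) at the positions where 1 of the 6 mice (x axis) lay at least 20 points above (red) or below (blue) the other 5. The difference was -11.99 and -1.29 points for week 8 replicate 2, of the same form as for week 8 replicate 3 and week 6 replicate 3, and 6.73 and -15.3 points for week 8 replicate 1.

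The same samples were read at the DMCs called with all 6 mice, where the choice of positions again places them between the weeks. Where week 8 was higher (71.5% against 54.3% at week 6, at the 4654 DMCs covered in all of them), weeks 10 and 12 averaged 64.3% and 64.4% and PyMT glands of weeks 6 and 8 averaged 56% and 56.4%. Where week 8 was lower (54.2% against 71.7%), weeks 10 and 12 averaged 64.5% and 64.5% and PyMT glands 63.3% and 62.8%. The change from week 6 to week 8 in PyMT glands at these positions was 0.341 and -0.524 points. PyMT glands were higher at week 8 than at week 6 at 51.2% and 47.2% of the positions.

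DMCs lay mostly outside promoters. Of the positions in promoters, 0.175% were DMCs, against 1.88% in exons, 1.85% in introns and 1.64% between genes, so that promoters held 60.6% of positions and 13.2% of DMCs. Without week 8 replicate 2 the shares called were 0.0543%, 0.598%, 0.563% and 0.557%, in the same order of size. The share followed the level at week 6: 0.125% of positions under 20% methylation were called, 3.00% of those from 20% to 80%, and 1.5% of those over 80%. A position near 0% or 100% has less room for a 10-point change. Soft-masked repeats were called at 1.15% and other sequence at 0.774%, and single autosomes at 0.718% to 0.903%. The X chromosome was kept apart, and 2.21% of its positions were called.

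Runs of changed positions were few. A region was a stretch of at least 3 positions, joined at gaps of at most 100 bp, with a mean difference of at least 20 points and at least 1 DMC of 25 points. Week 8 was higher in 26 regions and lower in 19, together 0.0522% of the 86268 stretches, with a median length of 44 bp. The weeks did not overlap in 17 higher and 13 lower regions. Week 8 replicate 2 lay outside the other 5 mice in 40 of the 45, and by at least 10 points in 29. The regions were chosen for a week difference in these same mice, which raises these counts. No share over all stretches stands beside them, so they are no separate support for a change. Without week 8 replicate 2, 8 higher and 10 lower stretches met the rule (0.0209%), and 3 were the same as with it, those in Bckdha and Rapgef4 and near Lgr5.

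In the intron of Bckdha, which encodes a subunit of the branched-chain ketoacid dehydrogenase, the 5 CpGs shown averaged 60.4%, 67.5% and 60% in week 8 replicates 1, 2 and 3 against 28.9%, 34.9% and 40.2% in the week 6 mice. All week 8 mice lay above all week 6 mice, and the difference was 28.0 points with week 8 replicate 2 and 25.6 points without it. In Rapgef4, whose product is a guanine nucleotide exchange factor activated by cyclic AMP, the 3 CpGs lie 359 bp from a TSS. At the first of them (2:72054224) week 8 stood at 4.76%, 16.7% and 0% and week 6 at 36.6%, 20% and 36.6%, which did not overlap. At the last (2:72054258) week 8 replicate 2 had 40%, at the level of the week 6 mice (40%, 30% and 41.9%), while the other week 8 mice had 9.52% and 0%. Coverage there was 18 to 45 reads.

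The stretch near Sh3bp5, 22915 bp from its TSS, was chosen after its values were seen, because most of its positions passed with and without week 8 replicate 2. Its 6 CpGs were read at 9 positions on both strands, of which 8 were lower DMCs in both calls. The means were 42.5%, 39.2% and 45.2% at week 8 against 64.9%, 72.3% and 53.9% at week 6, and the difference of -21.4 points was -19.8 points without week 8 replicate 2. The week 8 mice lay close together here, and week 6 replicate 3 was the nearest to them.

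The stretch near Lgr5, which encodes an R-spondin receptor that marks stem cells in several epithelia, showed the opposite behavior of week 8 replicate 2. Its mean was 80.1% in that mouse, 20.5% and 48.5% in week 8 replicates 1 and 3, and 62% to 63.4% at week 6. At position 10:115664598 the percents were 15.2%, 91.7% and 58.1% at week 8 and 75.9%, 77.4% and 63.9% at week 6. Week 8 replicate 2 therefore lowered the difference, which was -12.9 points with it and -28.1 points without it. The coverage was as low as 12 reads at 4 of the 5 positions, which limits each percent there.

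Among the regions in which the weeks did not overlap, those with the largest difference of pooled reads are given next, with their differences of sample means, by which some regions not named here were larger. The stretch nearest to Mir365-2, 64280 bp from its TSS, stood at 66.2%, 90% and 57.6% at week 8 against 46.9%, 26.7% and 30% at week 6, a difference of 36.7 points (27.4 without week 8 replicate 2). Its positions had only 10 to 27 reads. Introns of Zmiz1, a transcriptional coregulator, and of Disp1, needed for release of hedgehog proteins from cells, were higher by 25.7 and 26.1 points, and by 15.9 and 21.9 points without that mouse. An intergenic stretch nearest to 4930441H08Rik was higher by 32.1 points (22.1 without it).

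Of those lower at week 8, the coding exon of Sik3, a salt-inducible kinase, stood at 61.7%, 42.7% and 81.8% against 88.2%, 85% and 87.4%, so that week 8 replicate 3 lay near the lowest week 6 mouse. The difference was -24.8 points, and -15.1 points without week 8 replicate 2. In the intron of Kcnmb4, an auxiliary subunit of a calcium-activated potassium channel, 59.2%, 13.2% and 71.1% stood against 79.5%, 79.5% and 76.1%, and the difference of -30.5 points became -13.2 points. The remaining 3, an exon of Zfp385a, an intron of Crocc2 and a stretch nearest to Gm16087, differed by -24.2, -25 and -26.7 points, and by -14.6, -16.6 and -22.6 points without it. In the last, 1 week 6 mouse at 84.4% set most of the difference, with 40% and 45% in the other week 6 mice and 21.6% to 37.3% at week 8.

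**Figure D4:**
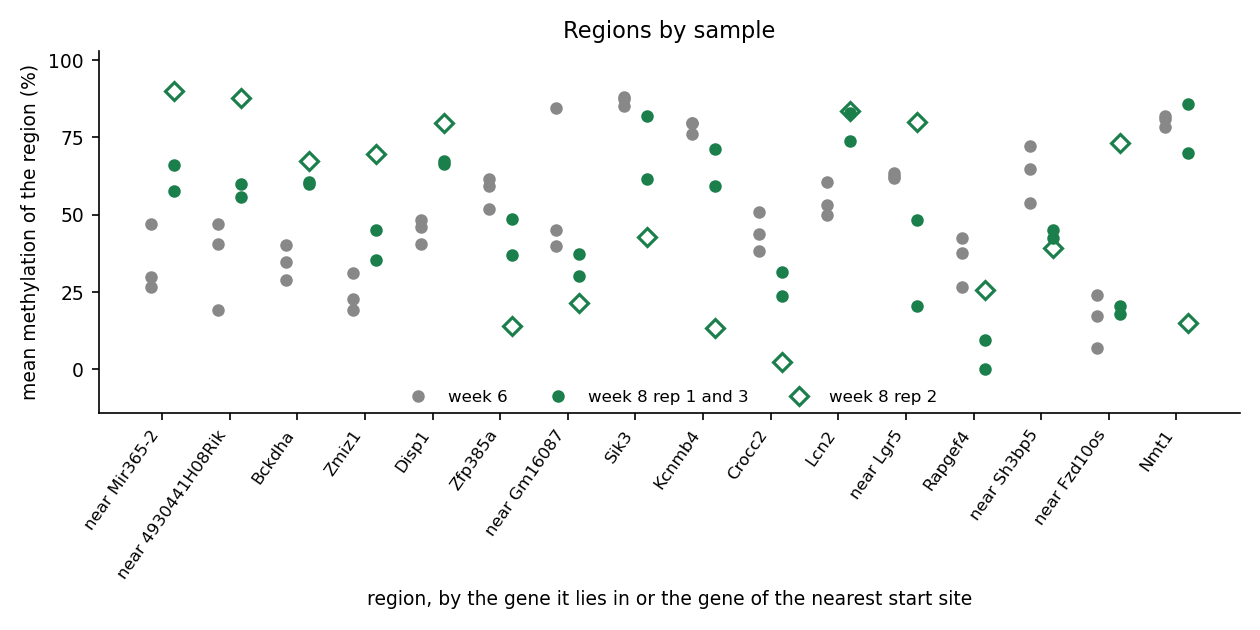
Mean methylation (y axis, percent) of named regions (x axis, by the gene they lie in or the nearest start site) in each of the 6 mice, grey dots for week 6, green dots for week 8 replicates 1 and 3 and open diamonds for week 8 replicate 2. In Bckdha the 3 week 8 mice lay at 60% to 67.5% against 28.9% to 40.2% at week 6, and near Lgr5 week 8 replicate 2 stood at 80.1% above all others.

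The regions in which week 8 replicate 2 lay farthest outside the others were chosen for that and are given without a test. In the stretch nearest to Fzd10os it stood at 73.3% and the other 5 mice at 7.02% to 24%, at positions of only 10 to 39 reads. In the intron of Nmt1, an N-myristoyltransferase gene, it stood at 15% at each of the 3 CpGs shown, and the other 5 mice had stretch means of 69.8% to 85.7%. In Steap3, a metalloreductase gene, it was at 95.8% against 24% to 51.9%, and in a stretch nearest to Cd180 it was at 0% over 5 positions against 46.4% to 92.8%. In 4 of the 10 stretches named this way the sign of the week difference turned without it: in Myo1e from 13.9 to -4.13 points, in Rimbp2 from 13.6 to -4.42, nearest to Atp1b3 from 13.7 to -1.82 and nearest to 4931429L15Rik from -17.4 to 3.40.

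Promoters changed little. Mean promoter methylation was tested by limma in the 16098 genes with at least 3 promoter positions, and 0 genes passed an adjusted p of 0.05, the smallest adjusted p being 0.811. At an unadjusted p of 0.05 there were 587 genes (3.65%), and 533 without week 8 replicate 2, again with 0 past the adjusted threshold. Against median promoter levels of 0.573% to 0.783% in the 6 mice, near the floor, the median absolute change was 0.152 points. It reached 5 points in 386 genes and 10 points in 57. Single DMCs fell in the promoters of more genes: 628 of 17003 (3.69%) had a higher DMC and 485 (2.85%) a lower one, and 196 and 179 without week 8 replicate 2. Of 15141 genes with at least 5 positions, the weeks did not overlap in 1304 (8.61%), of which 529 were higher and 775 lower at week 8.

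The largest promoter rise with weeks that did not overlap was that of Lcn2, which encodes lipocalin 2, a secreted protein that binds bacterial iron carriers and is made by epithelium and leukocytes. Over 7 positions (chr2:32386848-32387161), week 8 stood at 68.5%, 78.3% and 77.5% and week 6 at 58.4%, 52.2% and 63%. The difference was 16.9 ± 3.96 points (SE, n = 3 against 3; limma, adjusted p = 0.969) and 15.2 points without week 8 replicate 2. It held 2 higher DMCs, and 0 without that mouse. Both lay in an exon 578 bp from the TSS, in a region of 3 positions (chr2:32387124-32387161) that stood at 73.9%, 83.5% and 82.7% against 53.2%, 49.9% and 60.7%. Controls of weeks 10 and 12 averaged 71% and 71.8%, near week 8, and PyMT glands 18.6% at week 6 and 23.6% at week 8.

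The other 7 promoters with the largest rise were those of Rrp12, Leng9, Gm51277, Gm10612, Slc5a4a, Dnase1l3 and Hoxb5os, at 8.74 to 10.96 points. Without week 8 replicate 2, 6 of the 7 still differed by 7.51 to 10.1 points. Rrp12 was at the top of that range. There week 6 replicate 1 stood at 14.6%, the other week 6 mice at 33.3% and 31.9%, and week 8 at 36.1% to 39.2%. The promoter of Dnase1l3, a secreted nuclease, stood at 83.7%, 88.5% and 84.1% against 72%, 75% and 82.2%. Its 1 higher DMC was called with and without week 8 replicate 2. Hoxb5os, an antisense transcript in the Hoxb cluster, was the exception: week 8 had 30.3%, 47.6% and 29.4%, week 6 had 26.3%, 27.6% and 27.2%, and the rise of 8.74 points was 2.82 points without week 8 replicate 2, with 4 higher DMCs becoming 0. The adjusted p was 0.969 for each by limma.

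Of the 8 largest falls, that of Peg3 rested least on week 8 replicate 2. Peg3 is a paternally expressed imprinted gene for a zinc finger protein, and the 8 positions tested (chr7:6730262-6730328) are also the promoter positions of Usp29, an imprinted neighbor. At an imprinted promoter methylated on 1 of the parental alleles, bulk levels lie near the middle of the range. Week 8 stood at 31.6%, 33.9% and 34.6% and week 6 at 52.9%, 44.7% and 40.4%. The difference was -12.6 ± 3.40 points (SE; limma, adjusted p = 0.969) with week 8 replicate 2 and -12.9 points without it, and 4 positions were lower DMCs both ways. Weeks 10 and 12 averaged 42.7% and 45.7%, within the range of week 6, and PyMT glands 43.7% and 41.8%.

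The promoter of Fkbpl, a relative of the FK506-binding proteins, stood at 46.4%, 42.6% and 47% against 59.3%, 61.2% and 52.9%, a difference of -12.5 ± 2.91 points and -11.1 points without week 8 replicate 2 (SE; limma, adjusted p = 0.969). Its 3 lower DMCs were not called without that mouse. The others were Lrrtm2, Gm9936, Nipsnap3a, Slc16a8, Clps and 4930417O22Rik, at -10.5 to -13.2 points. Clps, the gene of pancreatic colipase, stood at 59.2%, 53.6% and 50% against 67%, 69% and 60.4%. Without week 8 replicate 2 these 6 differed by -8.66 to -11.4 points. In Slc16a8, a monocarboxylate transporter, the week 6 mice spread from 44.7% to 63.7%, all above the week 8 levels of 40.8% to 43.9%.

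**Figure D5:**
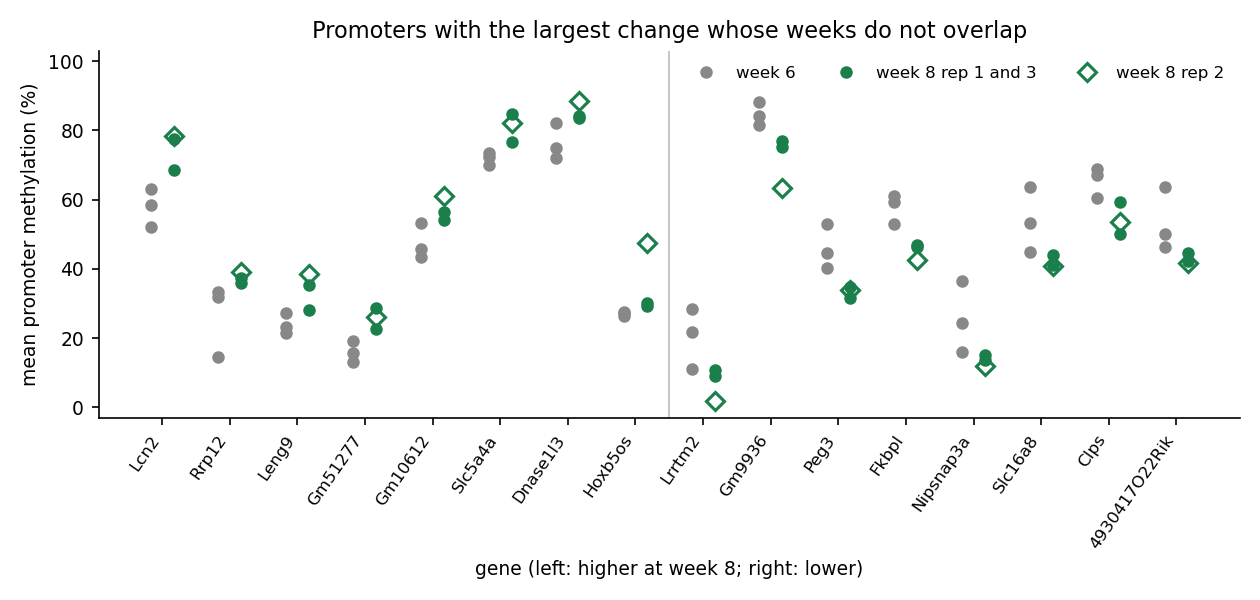
Mean promoter methylation (y axis, percent) of the 16 genes with the largest rise (left) or fall (right) between weeks that did not overlap (x axis), grey dots for week 6, green dots for week 8 replicates 1 and 3 and open diamonds for week 8 replicate 2. In Lcn2 the week 8 mice lay at 68.5% to 78.3% and the week 6 mice at 52.2% to 63%, and in Peg3 at 31.6% to 34.6% and 40.4% to 52.9%.

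Week 8 replicate 2 lay outside the other 5 mice, by any margin, in 6651 of the 16098 promoters (41.3%), above in 3105 and below in 3546. The promoters in which it lay farthest out were chosen for that and carry no test. It was at 59.6% in Krtcap3 against 18.1% to 34.5%, at 78.6% in Sox5os3 against 41.1% to 60.2%, and at 73.5% in Trim29 against 44% to 58.8%. In Vasn, whose product binds TGF-beta, it was at 19.7% against 0% to 4.00%. PyMT glands of weeks 6 and 8 averaged 10.3% and 9.07% in Krtcap3, 15% and 16.7% in Sox5os3 and 16.9% and 20.8% in Hoxb5os. These lay under every control of weeks 6 and 8. In Trim29 (46.9% and 50.7%), Vasn (2.08% and 0.778%) and Ect2l (32.9% and 25.1%), also chosen on the high side, PyMT glands lay inside the range of those controls. On the low side it was at 42.2% in Trex1, a DNA exonuclease gene, against 61.8% to 85.3%, and at 57.6% in Nlrc5, an activator of MHC class I genes, against 73.2% to 80%. In these and in 4933414I15Rik the sign of the week difference turned without it, from -7.16 to 3.40 points, from -1.80 to 5.41 and from -6.05 to 0.836.

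Genes of the cell types and processes of the gland were followed in lists. None of the members of any list passed the limma test with all 6 mice, and the lists are described by their counts beside those of all 16098 genes, of which 3.84% had a higher and 2.94% a lower promoter DMC and 8.6% had weeks that did not overlap.

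In luminal epithelial genes, 15 of 16 were measured, with a median change of -0.203 points against -0.0171 points over all genes. Of these, 3 had a higher and 1 a lower DMC, and without week 8 replicate 2 these were 0 and 1 (1.21% and 1.1% of all genes). Ehf, an epithelial ETS factor, stood at 52.8%, 60.1% and 59% against 36.9%, 55.8% and 60%, which overlapped. Cldn4, a tight junction protein, was at 34.9% to 40.6% against 38.1% to 46%. Hormone receptors and luminal regulators (15 of 16 measured) had 1 member with a DMC, and the weeks did not overlap in 1, Esr1, the estrogen receptor alpha gene. Its promoter stood at 17.3%, 14.6% and 13.9% against 17.7%, 19% and 20.9%, a difference of -3.90 ± 1.31 points (SE; limma, adjusted p = 0.969) with no DMC. Prlr, the prolactin receptor gene, stood at 29%, 47.8% and 33.3% against 41.5%, 46.5% and 37.6%, so that week 8 replicate 2 lay with week 6, and its difference was -5.17 points with and -10.7 points without that mouse.

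Milk and alveolar genes (9 of 16 measured) had no DMC. Wap, a whey protein gene, was at 73.5% to 75.8% at week 8 and 74.6% to 78.4% at week 6. Of the basal and myoepithelial genes, 11 of 16 were measured 2 had higher DMCs and 1 had lower ones. Krt5, the basal keratin gene, stood at 67.7%, 71% and 67.2% against 56.1%, 62.8% and 68.4%, and its 1 DMC was lost without week 8 replicate 2. Ductal branching genes (17 of 20 measured) changed by -1.25 to 0.560 points. Tbx2, a T-box factor, held their 1 DMC among 96 positions, at 2.47% to 3.41% against 2.11% to 2.85%.

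Adipocyte genes (14 of 20 measured) changed by -1.72 to 0.448 points, and Cidec, a lipid droplet protein gene, stood at 63.8%, 78.5% and 65.9% against 70.3%, 74.2% and 68.8%. Week 8 replicate 2 lay outside the other 5 mice in 10 of the 14 (71.4%, against 41.3% of all genes), above in 8 and below in 2. Such counts take any margin, which here ran from 0.0272 points in Pnpla2 through 0.771 points in Plin1 to 4.26 points in Cidec. They do not show how far that mouse stood out. The same share was 71.4% of 7 brown and beige fat genes, 63.6% of 11 basal genes, 62.5% of 16 Polycomb complex genes and 61.5% of 13 endothelial genes. It was 40% of 15 luminal genes, 25% of 12 leukocyte genes and 0% of 7 skin and hair genes. Among endothelial genes, Esam, a junction adhesion protein, stood at 33.9%, 14.2% and 23.9% against 27.4%, 31% and 24.1%, and Robo4, a vascular guidance receptor, at 72.1%, 49% and 56.5% against 71.5%, 67.2% and 60.1%. Week 8 replicate 2 was the lowest in both, and the difference in Esam turned from -3.51 to 1.41 points without it. In fibroblast and matrix genes (13 of 17 measured) it lay below the other 5 in 6 and above in 0, with Col1a1, a collagen gene, at 3.17% against 6.15% to 12.1%. Skeletal muscle genes (11 of 16 measured) had it above in 5 and below in 1. The part of cell type shares in its pattern was not tested.

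Leukocyte genes (12 of 32 measured) had 1 member with a higher DMC and none with a lower one, and Zap70, a T cell kinase, stood at 72.6%, 80.4% and 80.6% against 76.2%, 74.6% and 74.8%. In peripheral nerve genes (7 of 10 measured) Sox10, a Schwann cell factor, was at 18.3%, 25.6% and 20.8% against 19%, 16.5% and 21.2%. In skeletal muscle genes Ckm, the muscle creatine kinase, was at 50.6% to 55.7% against 36% to 62.4%. Skin and hair genes (7 of 14 measured) changed by -2.84 to 1.19 points. Brown and beige fat genes (7 of 12 measured) had lower DMCs in 2 (28.6%), Ebf2 and Tbx1, with and without week 8 replicate 2. Their promoters held 98 and 171 positions, so a single DMC had many chances to occur. Ebf2 stood at 2.01%, 1.90% and 2.43% against 3.43%, 2.90% and 3.07%, and the weeks overlapped in Tbx1. Higher DMCs lay in 2 fibroblast and 2 skeletal muscle genes, and in 0 without that mouse. Endothelial genes had no DMC.

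Imprinted genes had the most members, by share, with weeks that did not overlap: 4 of 22 measured (18.2%), Igf2, Peg3, Mest and Rasgrf1, each lower at week 8. Their median promoter levels were 31.6% to 37.5% in the 6 mice, against 0.573% to 0.783% over all genes. DMC shares varied with level, so the shares of this list and of all genes are not like for like. Lower DMCs lay in 5 of the 22 (22.7%), namely Igf2, Peg3, Mest, Igf2r and Gnas, and without week 8 replicate 2 in 1, Peg3. The median change of the list was 0.412 points, of the opposite sign, and -0.692 points without week 8 replicate 2. Peg10, a paternally expressed gene derived from a retrotransposon, stood at 45.6%, 36.1% and 40% against 44.8%, 33.3% and 28.7%.

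Germline genes, which are methylated in body tissues, had lower DMCs in 7 of 20 measured (35%) and higher ones in 3 (15%), and without week 8 replicate 2 in 2 and 0. The 2 were Rnf17 and Tdrd1, which encode tudor domain proteins of the germline. Rnf17 stood at 66.4%, 57.7% and 52.7% against 71.4%, 74.1% and 59.6%, and Tdrd1 at 68.8%, 62% and 67.3% against 71.5%, 76.6% and 67%. The weeks overlapped in both, and in all 20 genes of the list. Median promoter levels of the list were 85.3% to 87.5% in the 6 mice, so its DMC shares too are not like for like with those of all genes.

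Of the 32 autosomal Polycomb target genes that the study drew from its late carcinomas, all were measured. Of these, 3 had a higher DMC and 0 a lower one, and none had one without week 8 replicate 2. The study chose them on samples of this series, so they are not independent evidence of a direction. Hoxc12 stood at 5.37%, 10.8% and 12.9% against 7.37%, 3.15% and 10.6%. Genes of the methylation machinery (11 measured of 11) changed by -0.519 to 2.20 points, and the genes of the Polycomb complexes (16 of 16) by -0.611 to 0.574 points. Uhrf1, which recruits the maintenance methyltransferase, was at 1.13% to 2.44% against 0.723% to 1.68%.

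Whether the change over these 2 weeks differed between normal glands and PyMT glands was tested by an interaction of strain and week, with 2 PyMT mice at week 6 and 3 at week 8. Of 16006 promoters 0 passed an adjusted p of 0.05 by limma, with 965 at an unadjusted p of 0.05 and a smallest adjusted p of 0.297. Lcn2 averaged 18.6% and 23.6% in PyMT glands of weeks 6 and 8, with an adjusted p of the interaction of 0.882 by limma. With so few mice this does not show that the glands changed alike. One PyMT library of week 8 stood apart on the X chromosome, with a mean methylation of 31.8% there against 47.1% to 49.98% in the other 4.

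The other intervals between control groups were compared at the 1148317 positions covered in all 12 controls. Week 8 against week 6 gave 9368 DMCs there, and 3049 without week 8 replicate 2. Week 10 against week 8 gave 8073, and 3922 without it, and week 12 against week 8 gave 9486, and 4635 without it. Week 10 against week 6 gave 8240, week 12 against week 6 gave 10239, and week 12 against week 10 gave 2086. These comparisons share mice, and each interval also holds a different set of samples, so age and mouse cannot be told apart in any single one.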

How the data were processed

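DNA of snap-frozen bulk glands had been extracted with phenol and chloroform. Per the labels and the study's methods, reads had been mapped by the authors against mm10 in a pipeline built on Bismark. The authors removed 2 outlying samples, and deposited for each sample the read count (coverage) of each position with at least 10 reads and its percent of reads with C or T. The file headers name no version of the aligner. Methylated reads were recovered as coverage times percent.

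Positions covered in all samples compared were used, X and Y left out. Each was tested by logistic regression on week (likelihood ratio, Benjamini-Hochberg q). Mean percents over promoters, within 2 kb of a RefSeq TSS (45756 transcripts of 26180 genes), were tested by limma 3.58.1 (R 4.3.3) with a mean-variance trend. Overall means were compared by exact permutation in SciPy 1.17.1 (Python 3.11.15, NumPy 2.4.6, pandas 2.3.3). Regions by a fixed rule stood in for the region caller used in the study, which was not run. Depth set the precision of a percent, and reads were not counted by molecule, so counting error is a lower bound. The scripts were tested on simulated data, in which spread between mice made the test on reads, and to a lesser extent its overdispersed chi-square version, call unchanged positions.

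Samples were grouped by their labels, and by the study's methods each is a separate mouse. Members, lists and tests were chosen with earlier results of these data known. Genes were named as the 8 largest rises and falls among promoters of at least 5 positions with weeks that did not overlap, the 5 such regions in each direction with the largest mean difference of pooled reads, the 2 largest changes in each list, and the 6 genes and 5 regions in each direction in which week 8 replicate 2 lay farthest outside the other 5. Alternatives were leaving out each mouse, a replicate block, overdispersion, limma per position, and other coverage, strand, q-value, size, promoter, gap and weighting rules.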

Additional observations from a re-analysis of the deposited data

Results flagged for a closer look

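A signal was present on the X chromosome, which the autosomal comparison did not use. Of 27956 X positions covered in all 6 mice, 617 were DMCs (2.21%, against 0.802% of autosomal positions), 260 higher and 357 lower at week 8. Without week 8 replicate 2 there were 225 (0.805%), 94 higher and 131 lower, and 145 were called both times. At week 6, 42.8% of X positions had a mean of 20% to 80%, as did 14.5% of autosomal ones, and within that range 3.15% of X and 3.00% of autosomal positions were called. Mean X methylation was 48.3%, 47.9% and 47.1% in the week 8 mice and 47.8%, 48.6% and 47.9% in the week 6 mice, which overlapped.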

How the results depend on the processing

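Leaving out each mouse in turn gave 1415 (without week 8 replicate 2) to 8708 higher and 1615 (without week 8 replicate 2) to 8288 lower DMCs, 196 to 1249 and 179 to 785 promoter genes, and 8 to 100 and 10 to 84 regions, with every lowest count without week 8 replicate 2. Mean methylation then differed by -0.00839 (without week 6 replicate 2) to 0.132 points, and by -1.15 points over pooled reads. The interaction gave 0 to 1 promoters, that 1, Xrcc5, without week 8 replicate 3. DMCs were 241 and 242 with overdispersion and a chi-square test, 0 and 0 with an F test, 0 and 0 by limma, 2941 and 2868 where weeks must not overlap, and 563 and 611 at 25 points. In settings chosen after seeing the data, without week 8 replicate 2, overdispersion with chi-square gave 143 and 217 and limma 0 and 0.

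Promoter genes were 246 and 188 within 500 bp, 270 and 183 upstream only, and 24 and 27 with at least 3 DMCs. Regions were 15 higher with gaps of 200 bp, 6 and 6 with at least 5 positions, and 8 and 7 with at least 20 reads. Replicate numbers did not pair the mice (correlations 0.0256, -0.0430 and 0.0222), and with a replicate block there were 3158 and 3057 DMCs and 0 promoters by limma. Differences that reversed without week 8 replicate 2 were those of Esam (1.41), Trex1 (3.40), 4933414I15Rik (0.836), Nlrc5 (5.41) and the stretches in Myo1e (-4.13) and Rimbp2 (-4.42) and nearest to Atp1b3 (-1.82) and 4931429L15Rik (3.40). The cause was not tested. Over the main results, 52 settings gave the same call or a like count, 49 moved it and 2 reversed it. Week 8 against week 6 gave 0 promoters by limma in each setting run, the interaction apart.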
